A study of Mus musculus with 3 samples.

Results

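A set of 7 loci of EBF1 ChIP signal lay nearest to the Runx genes Runx1, Runx2 and Runx3 and to the T lineage genes Tcf7, Tox and Il2ra. A region of the deposited table was taken where no other protein-coding gene body was closer to its centre than one of these 6 genes, at up to 100 kb. This rule took 14 of 4116 regions, which overlap into 7 of 2121 loci, and every gene had at least 1 locus. The rule used position and no measured value, although the genes were chosen with earlier results of these data known.

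The cells were C57BL/6 pro-B cells grown in culture from c-kit-positive lymphocyte progenitors of the fetal liver of Ebf1-/- mouse embryos at E16.5 (in days of development), with IL7, SCF and Flt3 ligand, and on OP9 feeder cells for differentiation. All of them carried retroviruses for the doxycycline-controlled transactivator and for FLAG-tagged NICD1, the intracellular and active part of the Notch1 receptor, and all had received doxycycline at 1 µg/ml for 6 hours. EBF1, which sets up the B lineage program as a transcription factor, came back from a further retrovirus, StrepFLAG-tagged and either wild-type (EBF1wt) or carrying the substitution E271A (EBF1E271A). Chromatin immunoprecipitation and sequencing (ChIP-seq) of EBF1 gave 1 library for each protein, and the remaining library was an input from cells with EBF1wt. Human BJAB lymphoma cells were mixed in at 1 for every 10 mouse cells, and the values were scaled by the human chromatin. The table gives scaled counts for both ChIP libraries and none for the input, so enrichment over input was not analysed here. The regions carry no transcript levels, and the pro-B identity of the cells was not checked. Each group is a single library, so the proteins could not be tested against each other and no value has a replicate. The 95% intervals below come from the unscaled counts (exact Poisson for a value, exact Clopper-Pearson binomial for a ratio) and cover counting error only, with the scale between the libraries taken as exact.

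Runx proteins bind DNA through a shared Runt domain together with the partner CBFβ. Runx1 acts in blood stem cells and in early B and T lineage cells, Runx3 in cytotoxic T cells and Runx2 above all in bone. Tcf7 encodes TCF1 and Tox an HMG-box protein, both transcription factors of early T cell development, and Il2ra encodes CD25, the α chain of the interleukin 2 receptor and a marker of thymocyte progenitors. Notch signalling starts the T lineage program, whereas EBF1 is known for restraining T lineage genes in B cell progenitors.

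The 3 Runx genes have a sequence in common at their start sites. The RefSeq promoter windows (GRCm38.p6, 250 bases before to 50 after a start site) of the distal starts of Runx1 and Runx3 and of the listed start of Runx2 have a run of 18 letters in common. It is shown because it is found at a start site of each Runx gene and because none of the 7 loci lies on it. Counted from the start site, it begins at base 27 of Runx1, at base 22 of Runx2 and 136 bases before the start of Runx3. The run, in capitals, holds 2 matches to the RUNX motif TGTGGT, both on the opposite strand.
Runx1, chr16:92826025-92826054, minus strand: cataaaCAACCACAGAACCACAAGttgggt
Runx2, chr17:44814583-44814612, minus strand: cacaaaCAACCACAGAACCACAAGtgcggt
Runx3, chr4:135120503-135120532, plus strand: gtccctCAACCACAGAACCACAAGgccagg

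On either strand, TGTGGT occurs in 16.8% of the 32851 RefSeq windows, and the 18-letter run at 3 positions, those shown; the window of the noncoding gene Gm16225 overlaps that of Runx3 and holds the same copy. Among the member genes, 5 have 8 windows in all, and Tox has no entry. The core of the EBF palindrome, CCCNNGGG, which reads alike on both strands, occurs in 13.7% of all windows and in 0 of these 8. No window overlaps a locus. The closest is that of Tcf7, which begins 70 bp from its locus. The sequences under the loci themselves were not analysed here.

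At 6 of the 7 loci the interval of the ratio of EBF1E271A over EBF1wt held 1, and at Runx3 it lay above 1. At Runx2 this depends on the region chosen, since the other overlapping region had 1.26 (1.02 to 1.55). Counting a locus as changed from 2-fold upwards (log2 values after a pseudocount of 1), 1 of 7 loci was at least 2-fold higher with EBF1E271A, against 0.849% of all loci, and 0 were at least 2-fold lower, against 4.48%. With 1.5-fold as the limit the counts were the same, 1 higher and 0 lower, against 3.11% and 14.1% of all loci. The ratio was at or above 1 at 5 of the 7 loci, against 32.8% of all loci, and with both libraries set to equal sums at 7 of 7, against 64.4%. The median log2 ratio was 0.20 for the 7 loci and -0.16 for all loci, a difference of 0.36. It was smaller in subsets of the loci. With loci above a scaled count of 100 in both libraries it was 0.11, over 5 of the 7 loci. Without the Runx3 locus it was 0.26. The limit of 100 in both libraries selects in part on the ratio. It leaves out Runx3 and the outer Il2ra locus, whose ratios had to exceed 1. Among all loci it also leaves out those with ratios that had to lie below 1. Each locus exceeded 100 in at least 1 library. The Runx3 locus and the outer Il2ra locus did so with EBF1E271A alone, as did 180 of all loci (8.49%), and 0 of the 7 did so with EBF1wt alone, against 23.1% of all loci. A locus above 100 with EBF1E271A alone has a ratio above 1 by construction, and a locus above 100 with EBF1wt alone a ratio below 1.

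**Figure D1:**
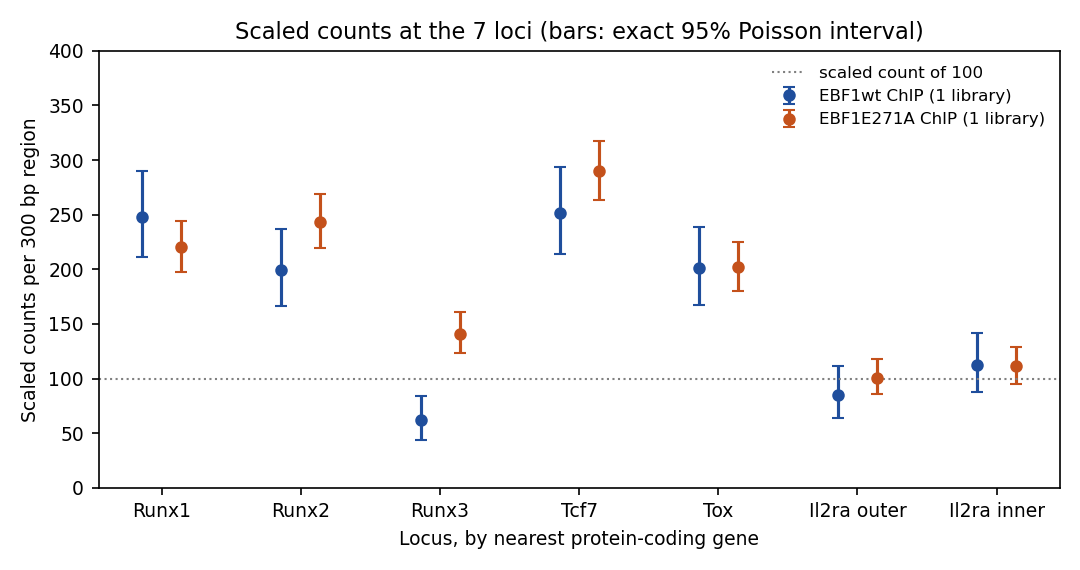
Scaled counts per 300 bp region (y axis) at each of the 7 loci (x axis) for the EBF1wt and the EBF1E271A ChIP, 1 library each, with exact 95% Poisson intervals as bars. Only at Runx3 do the bars of the libraries stand apart, with 61.7 for EBF1wt and 141 for EBF1E271A.

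At the Runx3 locus the scaled count was 61.7 for EBF1wt (43.8 to 84.3) and 141 for EBF1E271A (123 to 161), from 39 and 223 unscaled counts. Of all loci, 0.802% had a lower EBF1wt value and 55.8% a lower EBF1E271A value. Each locus exceeds 100 in at least 1 library, so only the 180 loci above 100 with EBF1E271A alone can lie lower with EBF1wt. The low EBF1wt rank follows in part from this limit, and the ranks cannot show which library departs. The ratio was 2.29 (1.62 to 3.303), and only 12 of the 2121 loci had a higher log2 ratio. Of the 301 loci with an EBF1E271A value within 1.1-fold of this one, 3 had a higher ratio, and their median EBF1wt value was 147. Among the 180 loci above 100 with EBF1E271A alone, where the median ratio was 1.35, 12 had a higher ratio. Both overlapping regions of the locus gave a similar ratio, 2.19 (1.56 to 3.15) and 2.29, with centres 35 bp apart. They share most of their bases, so this likeness was to be foreseen and is no independent support. The locus (chromosome 4, 135181826 to 135182125) lies 3985 bp outside the gene body, past its end in the direction of transcription, 61.3 kb from the distal and 29.4 kb from the proximal RefSeq start. The next protein-coding gene is Clic4, a chloride channel family gene, 31994 bp away.

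The Runx2 locus had 199 scaled counts for EBF1wt (166 to 237) and 244 for EBF1E271A (219.8 to 269), giving 1.22 (0.997 to 1.51) as the ratio. The intervals of the values overlapped, while the interval of the ratio lay above the median ratio of all loci, 0.896. The other overlapping region of this locus gave 1.26 (1.02 to 1.55), an interval just above 1, with centres 16 bp apart. Whether the interval at Runx2 holds 1 therefore depends on the region chosen. This locus (chromosome 17, 44418702 to 44419001) lies 77.1 kb past the end of the gene and 396 kb downstream of its start, with no other gene of any kind within 100 kb.

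The Runx1 locus had the lowest ratio of the 7, with 248 for EBF1wt (211 to 290) and 220.1 for EBF1E271A (198 to 244), giving 0.887 (0.732 to 1.08) as the ratio. The intervals of the values overlapped, and 48.3% of all loci had a lower ratio, so the locus sat at the centre of the table. It lies upstream of the gene (chromosome 16, 92921844 to 92922143), 95.9 kb from the distal start and 225 kb from the proximal one, with the noncoding gene Gm41499 closer, at 35.0 kb. This is the locus nearest to the 100 kb limit. Beyond the limit, 323 kb from Runx1, which was still the nearest protein-coding gene, another locus had 83.8 for EBF1wt and 126 for EBF1E271A, with its ratio at 1.502 (1.104 to 2.07).

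The log2 ratio at Runx3 was 1.37 above that at Runx1 (0.81 to 1.93) and 0.90 above that at Runx2 (0.33 to 1.47), and that at Runx2 was 0.46 above that at Runx1 (0.07 to 0.86). These differences do not depend on the scale between the libraries, because it cancels. Their intervals are normal approximations on the log scale and hold no variation between replicates. Adjusted for the 5 pairs of loci compared (Bonferroni), the interval between Runx2 and Runx1 held 0 (-0.059 to 0.99), and those of Runx3 against Runx1 (0.63 to 2.10) and Runx2 (0.15 to 1.65) did not. The Runx3 locus is in the table only through its EBF1E271A value, so its ratio had to exceed 1, and these differences are given as a description.

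**Figure D2:**
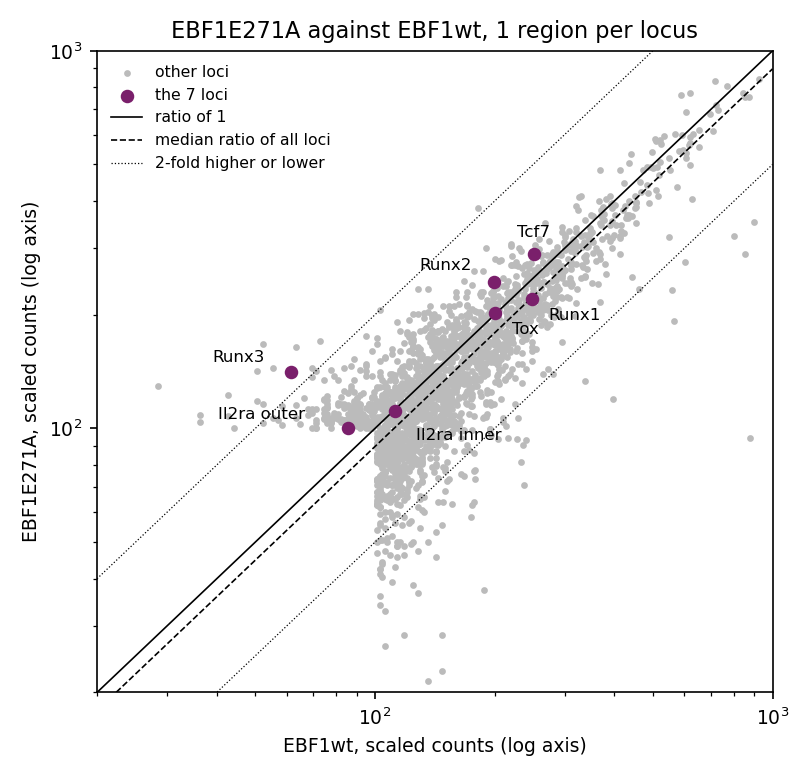
Scaled counts of EBF1E271A (y axis) against EBF1wt (x axis), both on log axes from 20 to 1000, with each point a locus and the 7 named loci in purple; 13 loci lie outside the axes. The Runx3 point lies above the upper 2-fold line and left of most loci, the outer Il2ra point lies left of 100, and the other 5 lie within the main cloud.

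Tcf7 had the strongest of the 7 loci and the closest to a gene's start. It had 251.4 scaled counts for EBF1wt (214 to 294) and 289.7 for EBF1E271A (264 to 317), above 84.5% and 91.4% of all loci. The intervals of the values overlapped. The ratio was 1.15 (0.960 to 1.39), an interval that held 1 but lay above the median ratio of all loci. It held the median ratio, 0.976, of the 114 loci with an EBF1E271A value within 1.1-fold of this one. Of these, 20 had a higher ratio. The region (chromosome 11, 52283335 to 52283634) overlaps the 5′ edge of the gene body, with its centre 101 bp outside it and 0.47 kb upstream of the first RefSeq start listed with a window. It is the only one of the 7 loci within 1 kb of a start or an end of its gene.

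The Tox locus lies inside the gene body (chromosome 4, 6924713 to 6925012). Its values were 201 for EBF1wt (167 to 239) and 202 for EBF1E271A (180.2 to 225), which could not be told apart at this depth, and the ratio was 1.00 (0.816 to 1.24). Tox stood alone: no other gene lies within 100 kb of the locus, and no other locus was found within 1 Mb of the gene. Whether the locus is exonic or intronic was not analysed here.

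Il2ra had a pair of weak loci on either side of its start. The outer locus (chromosome 2, 11623262 to 11623561), 19.4 kb upstream, had 85.4 for EBF1wt (64.1 to 111) and 101 for EBF1E271A (85.5 to 117), giving 1.18 (0.860 to 1.64) as the ratio. The gene Rbm17, which encodes a splicing factor, lies almost as near to it, at 20.2 kb. The inner locus (chromosome 2, 11653220 to 11653519), inside the gene body and 10.6 kb downstream of the start, had 112 for EBF1wt (87.7 to 142) and 111 for EBF1E271A (95.5 to 129), giving 0.992 (0.749 to 1.33) as the ratio. At both loci the intervals of the libraries overlapped. The log2 ratio was 0.25 higher at the outer locus, with an interval from -0.35 to 0.85, which allows a difference of up to 1.80-fold. Between Tcf7 and Tox the difference was 0.20 (-0.20 to 0.59).

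**Figure D3:**
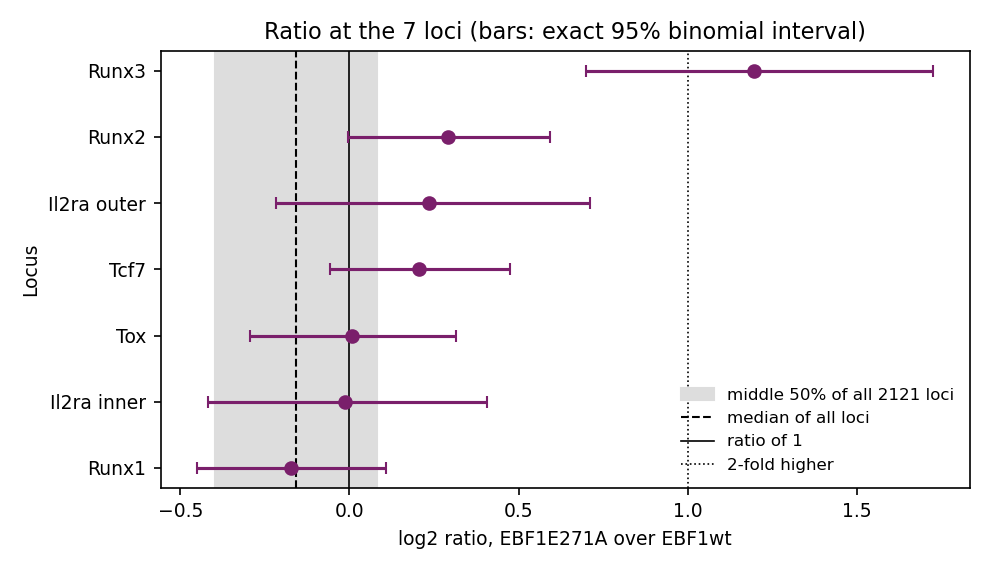
Ratio of EBF1E271A over EBF1wt on the log2 scale, without a pseudocount (x axis), at the 7 loci ordered by ratio (y axis), with exact 95% binomial intervals as bars; the grey band is the middle 50% of the 2121 loci, from a ratio of 0.760 to 1.06. Runx1, the inner Il2ra locus and Tox have their points inside the band. With the region chosen for each locus, Runx3 is the only locus whose whole interval lies above a ratio of 1. The other region of Runx2, not drawn, has 1.26 (1.02 to 1.55).

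In order of ratio the loci ran from Runx1 through the inner Il2ra locus, Tox, Tcf7, the outer Il2ra locus and Runx2 to Runx3. Neighbours in this order had overlapping intervals except Runx2 and Runx3. The interval lay above the median ratio of all loci at 3 of the 7 (Runx2, Runx3 and Tcf7), against 17.3% of all loci, and below it at 0, against 16.7%. Loci within 1.1-fold in EBF1E271A value had median ratios of 0.962 for Runx2, 0.955 for Runx3 and 0.976 for Tcf7. These lay below the interval at Runx2 and Runx3 and inside it at Tcf7. The Runx3 locus exceeded 100 with EBF1E271A alone. Its ratio therefore had to lie above 1, and so above 0.955 and above the median ratio of all loci. The pairs of overlapping regions within a locus gave nearly the same ratio, at most 1.04-fold apart, with centres 0 to 35 bp apart, against a median of 16 bp over the 1995 loci with more than 1 region. Such pairs share most of their bases and are not independent. The inner Il2ra locus is listed as the same region in duplicate.

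The loci closest to Runx3 in the log2 values of both libraries were 54 bp from Klk4, a protease gene of tooth enamel (61.7 for EBF1wt and 139 for EBF1E271A), inside Pttg1ip (55.3 and 145) and 21.8 kb from F830045P16Rik (69.6 and 145). With only 2 libraries this likeness is one of a pair of values.

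Within 1 Mb of the 6 gene bodies lay 23 other loci, with a median ratio of 0.849 against 0.896 for all loci, and 7 of them had a ratio at or above 1, against 32.8% of all loci. Differences between the members and these neighbours were not tested. Around Runx3 the 7 other loci ran from 0.606 (0.488 to 0.754), near Id3, to 1.53 (1.21 to 1.96), inside the cannabinoid receptor gene Cnr2, and the latter was the highest of all 23. Another locus inside Cnr2 had 0.777 (0.577 to 1.05). Around Runx2 the 5 others ran from 0.514 (0.388 to 0.684), near Supt3, to 1.17 (0.934 to 1.48), nearest to Cdc5l. The locus near Clic5, 131 kb from Runx2, had 0.618 (0.451 to 0.851). The Supt3 locus (144 for EBF1wt, 74.0 for EBF1E271A) and the Clic5 locus (108 and 66.4) exceeded 100 with EBF1wt alone. Their ratios were therefore below 1 by construction. All 6 others around Tcf7 lay on one side of it, from 0.651 (0.503 to 0.844), near Cdkn2aipnl, to 1.07 (0.866 to 1.34), inside Sec24a. Around Runx1 the 3 others ran from 0.952 (0.709 to 1.29), inside Clic6, an interval overlapping that of the Runx1 locus, to the 1.502 given above. The Clic6 locus (104 for EBF1wt, 99.3 for EBF1E271A) exceeded 100 with EBF1wt alone, so its ratio had to lie below 1. The locus with 1.502 exceeded 100 with EBF1E271A alone, so its ratio had to lie above 1. Near Il2ra the 2 others, near Rbm17 and inside Pfkfb3, had 0.835 (0.658 to 1.06) and 0.872 (0.680 to 1.13), with intervals that overlap those of both Il2ra loci.

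**Figure D4:**
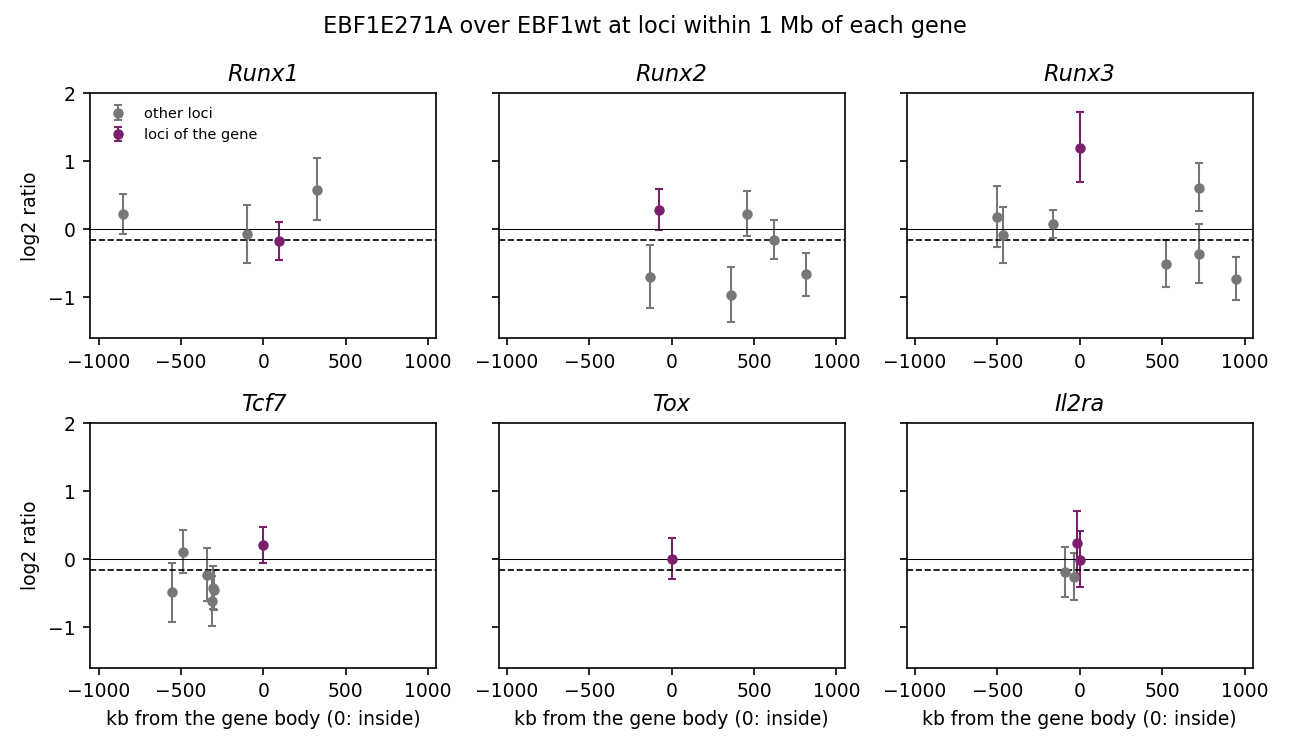
Log2 ratio of EBF1E271A over EBF1wt (y axis) at every locus within 1 Mb of each gene body, by distance from it in the direction of the coordinates (x axis, kb), with exact 95% binomial intervals; loci of the gene are purple, other loci grey and the dashed line is the median of all loci. A locus of the gene has the highest ratio in the Runx2, Runx3, Tcf7 and Il2ra panels, each with an interval that overlaps that of the next highest; in the Runx1 panel it has the lowest, and Tox has no other locus.

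Of 42 listed genes of T cell factors, receptors and signalling, 7 had a locus, 4 of them besides Tcf7, Tox and Il2ra. These are 4 of 39 other genes, or 10.3%, against 7.37% of all protein-coding genes. The ratio was 1.33 (0.987 to 1.83) near Ccr7, a chemokine receptor gene of T cell homing, and 0.888 (0.718 to 1.102) near Ccr9, a receptor of thymus seeding. It was 0.838 (0.695 to 1.01) at the locus of Satb1, which encodes a chromatin organiser of thymocytes. At the locus named above near Id3, which encodes an inhibitor of E proteins, it was 0.606, with 225 for EBF1wt and 136 for EBF1E271A. The loci lay 70.9 kb from Satb1, 16.0 kb from Ccr7, 15.9 kb from Id3 and 4.03 kb from Ccr9. Among these 4 loci, 0 were past the 2-fold rule in either direction. Their median log2 ratio was -0.21, against -0.16 for all loci. With equal sums these medians were 0.077 and 0.13. The Ccr7 locus (90.1 for EBF1wt, 120 for EBF1E271A) exceeded 100 with EBF1E271A alone, so its ratio had to lie above 1. With only loci above 100 in both libraries, which leaves Ccr7 out, the median was -0.25, against -0.10 for all such loci.

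Among genes of Runx partners and cofactors, Cbfb, which encodes the DNA-binding partner of the Runx proteins, had no locus. The corepressor gene Tle3 had 2 loci, 60.6 and 17.9 kb from it, with ratios of 1.096 (0.915 to 1.32) and 1.14 (0.942 to 1.38). Its relative Tle5 had 0.878 (0.724 to 1.07), at 5.43 kb, and the kinase gene Hipk2 had 1.05 (0.870 to 1.26), inside the gene. The interval held 1 at each of these 4 loci. The ratio inside Cbfa2t3, a corepressor gene of the ETO family, was 0.739 (0.558 to 0.985). That locus (125 for EBF1wt, 92.3 for EBF1E271A) exceeded 100 with EBF1wt alone, so its ratio had to lie below 1.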

How the data were processed

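Per the file headers, the authors deposited a signal, scaled counts per region, for each ChIP library; per the labels the scaling used human chromatin. Tools in the submitters' processing notes are deepTools 3.3.2 and 3.5.0, MACS2 2.2.7.1, Bowtie2 2.3.5.1, bedtools 2.27.0 and SAMtools 1.10; the calling of regions and the scale factors are not given in the sources used here. All values were whole multiples of 1.5811 (EBF1wt) or 0.6325 (EBF1E271A), within 0.001 counts, and division gave the unscaled counts: 515897 and 1105818 over all regions, with medians of 91 and 207 per locus. These steps are inferred from the values. PCR copies are not separate molecules.

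Overlapping regions were merged, and the region with the higher mean value stands for a locus. Positions were taken as GRCm38, with starts counted from 0 in the file and printed counted from 1. Gene bodies came from a RefSeq table of GRCm38.p6 (21900 protein-coding genes). Intervals and fold limits were first tested on simulated data. The simulated counts came from the binomial model of the interval itself, with the scale exact. They do not cover variation between libraries or PCR copies. Members, gene lists and rules were chosen with earlier results of these data known. All members and the listed genes with a locus are named; 1 gene of the Runx partner list is not reported here, so that list has no counts or median; also named are the 3 loci most like the most extreme member and the lowest and highest ratio within 1 Mb of each gene; other neighbouring loci were named after their values were seen. Python 3.11.15 and scipy 1.17.1 were used.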

Additional observations from a re-analysis of the deposited data

How the results depend on the processing

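No paired analysis was possible because each group has 1 library. The Runx partner list was not recomputed. Of 96 values recomputed under other settings, 10 moved beyond their interval (for medians, beyond the range of the loci) or, for counts, by over 1.5 times. The only locus past a fold limit, Runx3, kept its sign, and 4 other values changed sign, all with equal sums. Scaling both libraries to equal sums over all loci shifted every log2 ratio by 0.29, or by 0.16 without the highest locus. All 7 loci then had a log2 ratio at or above 0 (against 64.4% of all loci), or 6 of them (against 50.6%), with Runx1 at 0.12 and -0.0081 and the inner Il2ra locus at 0.28 and 0.15, so their side of a ratio of 1 depends on the spike-in scale; the median of the 4 other T lineage loci went from -0.21 to 0.077. Tcf7 moved to 0.49 with equal sums. The Runx3 log2 ratio ranged from 1.08 to 1.47 over 6 settings and stayed past 2-fold in each. These settings leave counting error out, and the counting interval of the Runx3 ratio, 1.62 to 3.303, held 2.

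The count of loci at least 2-fold higher fell to 0 among loci above 100 in both libraries, among the stronger loci (mean value from the median upwards) and without Runx3, a setting added after the data were seen; in each, the Runx3 locus is out by construction. It was 2 with each region counted. The count at or above 0 was 3 of 5 with loci above 100 in both libraries (35.6% of all loci), 3 of 4 with the stronger loci (33.9%), 3 of 4 with genes within 10 kb (32.8%) and 10 of 14 with each region counted (33.2% of all regions), against 5 of 7. The median of the members and its difference from all loci were 0.0069 and 0.11 with loci above 100 in both libraries, and the difference was 0.22 for the stronger loci. The Runx3 value rests on 39 unscaled counts of EBF1wt.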

Other observations

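The deposited table is ordered by the ratio of EBF1E271A over EBF1wt: going down its 4116 rows, the ratio falls below that of the row before in 0 cases. The Runx3 regions stand in rows 4099 and 4103, close to the end, and the Runx1 regions in rows 1785 and 1933, near the middle. Runx3 holds the regions of the lowest EBF1wt value of the 6 genes, and a further locus with Runx1 as nearest protein-coding gene, at 323 kb, also exceeded 100 with EBF1E271A alone.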
